A study of Homo sapiens with 12 samples.

Results

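The 29 genes described here are targets of the tumour suppressor p53. They were taken by name from the 27011 genes in the RNA-seq and Ribo-seq count tables, with earlier results of these data known. Of the 29, 29 were found, C12orf5 under its current name TIGAR. A total of 28 passed the filter on low counts in both assays. GDF15, a secreted stress cytokine, did not: it had 6 and 4 mRNA counts in the WT libraries, 2 and 5 in the 4EHP-null and 6 and 2 in the GIGYF1/2-null.

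The cells were HEK293T, a human embryonic kidney line, and were untreated. The study compared 3 genotypes: wild type (WT); 4EHP-null, without 4EHP, a cap-binding protein that represses translation; and GIGYF1/2-null, without GIGYF1 and GIGYF2, the scaffold proteins that 4EHP binds. Each genotype had 2 libraries of mRNA (RNA-seq) and 2 of ribosome-protected fragments, or footprints (Ribo-seq), 12 libraries in all. The series record calls them biological replicates, but the labels do not say whether they were separate cultures or whether each null line was 1 clone, and p-values therefore cover only the spread of these libraries, which may be technical.

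p53 is a transcription factor that is held at a low level by MDM2 and MDM4 and is stabilised by DNA damage and other stresses. Its targets halt the cell cycle, start apoptosis, repair DNA, adjust metabolism and, through MDM2 and PPM1D, switch p53 itself off again. HEK293T cells carry the large T antigen of simian virus, which binds p53 and blocks its action as a transcription factor, so target mRNA in these cells need not come from active p53.

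Total counts ran from 26143118 to 38175701 per mRNA library and from 6536493 to 10816080 per footprint library. Levels are given in CPM, the counts of each library scaled to a common total with TMM factors, and changes are log2 fold changes ± standard error (SE) with 2 libraries per genotype. A gene is called, and said to rise or fall, where edgeR's quasi-likelihood test gave an adjusted p under 0.05 over all genes of the assay. EIF4E2, which encodes 4EHP, fell in 4EHP-null mRNA (-1.33 ± 0.08) and GIGYF1 in GIGYF1/2-null mRNA (-0.76 ± 0.11), while GIGYF2 was not lower there (0.28 ± 0.11, adjusted p = 0.124), so its loss rests on the label. The 8 marker genes of the HEK293 line summed to 1140 to 1300 CPM in WT mRNA, 830 to 939 in 4EHP-null and 1020 to 1260 in GIGYF1/2-null. Of the 7 tested, 1 rose and 3 fell in 4EHP-null mRNA, and 4 rose and 1 fell in GIGYF1/2-null mRNA. Of all genes tested, 13.1% and 11.9% were called. The 6 fibroblast markers summed to 6.91 to 7.23 CPM in WT mRNA, 7.21 to 9.06 in 4EHP-null and 12.1 to 12.6 in GIGYF1/2-null. The part of these marker differences in the changes of the p53 targets was not tested. The 7 leukocyte markers summed to at most 6.23 CPM in mRNA, with PTPRC, the marker of all leukocytes, at 0 in every mRNA library.

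In mRNA, 5 of the 28 tested members were called in 4EHP-null against WT cells, 4 up and 1 down, where 13.1% of all 15637 genes tested were called (6.47% up and 6.63% down). In GIGYF1/2-null against WT cells 4 rose and 1 fell, where 11.9% of all genes were called (5.2% up and 6.75% down). Between the knockouts 3 were higher and 5 lower in GIGYF1/2-null cells, where 24.4% of all genes were called (11.4% up and 13% down). That balance turned with upper-quartile scaling, under which 7 were higher and 2 lower: CCNG1, PHLDA3, EI24 and TIGAR were then called higher, and CDKN1A, APAF1 and FDXR were no longer called. Under this scaling the median change of all genes moved from 0.002 to 0.057. It called 25% of all genes, and their split into up and down was not computed. With TMM scaling, the member shares of 17.9%, 17.9% and 28.6% lie near the background. The median member change was 0.01, 0.06 and 0.07 in the 3 comparisons, and that of all genes 0, 0.01 and 0. Both knockouts were compared with the same WT libraries, so their values are set side by side and not as independent evidence.

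**Figure D1:**
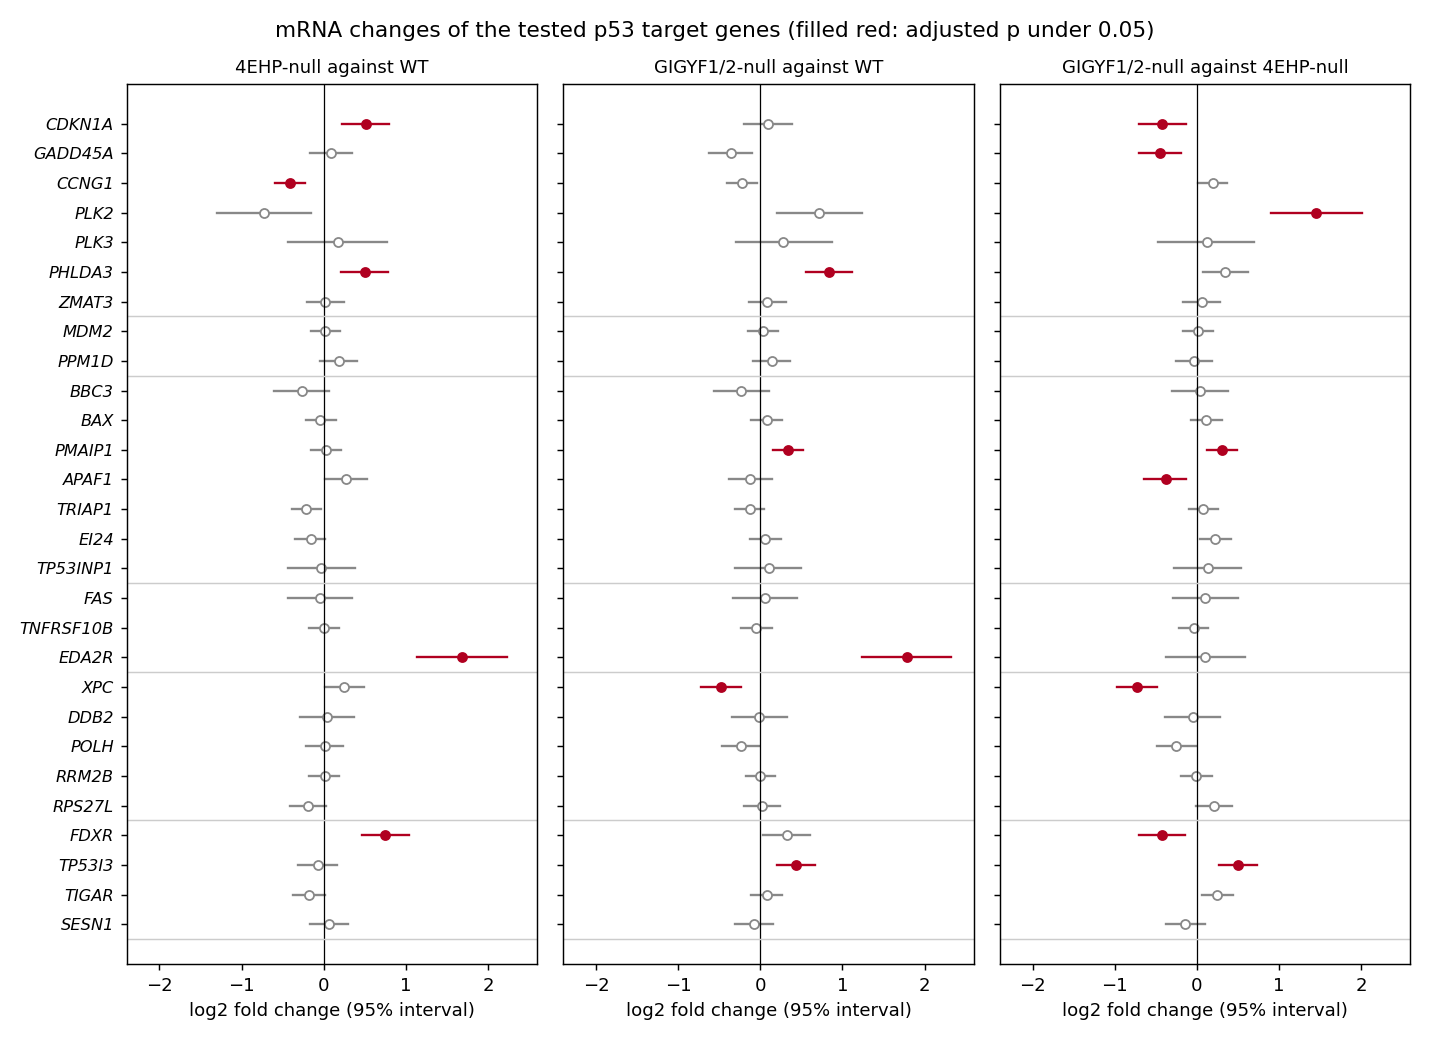
The mRNA log2 fold change (horizontal axis, 95% interval as a line) of each of the 28 tested p53 target genes, ordered by role with grey lines between roles, in the 3 comparisons. Filled red points are called: EDA2R at 1.68 and 1.78 stands farthest from 0 against WT, and PLK2 at 1.45 between the knockouts, while most members lie close to 0.

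Promoters of the members were searched for the p53 half-site, the 10-base palindromic element of which p53 binds a pair. RefSeq (GRCh38.p14) gave 36 promoters for 24 of the 29 members, each from 250 bases before to 50 after a start site. On either strand, 7 of the 36 (19.4%) held a half-site, against 2329 of 35116 promoters of the table (6.63%). A pair of half-sites with at most 13 bases between them was in 1 member promoter, that of DDB2, and in 10 of all (0.0285%). The other members with a half-site were EI24, FAS, FDXR, PLK2, RPS27L and SESN1. The windows of 2 members that were called in mRNA, FDXR and PLK2, and of 2 that were not, RPS27L and EI24, are shown 5′ to 3′ on the gene's strand, with the half-site in capitals.
FDXR (chr17:74872995-74873025, minus strand): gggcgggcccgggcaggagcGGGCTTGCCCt
PLK2 (chr5:58460189-58460238, minus strand): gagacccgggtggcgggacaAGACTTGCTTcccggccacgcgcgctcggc
RPS27L (chr15:63157507-63157556, minus strand): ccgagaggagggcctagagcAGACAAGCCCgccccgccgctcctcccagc
EI24 (chr11:125569447-125569476, plus strand): ccagcggccccgtgcggcccGGGCATGCCC
A match is a description of these letters and not a measured binding site, and a promoter without one shows only that the letters are not in this window.

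Among the 8 genes of arrest and growth control, 5 of the 7 tested were called in mRNA in at least 1 comparison, as were 31.4% of all genes tested. CDKN1A encodes p21, the inhibitor of cyclin-dependent kinases through which p53 halts the cycle. Its mRNA stood at 12.4 and 12.6 CPM in WT, 17.1 and 18.6 in 4EHP-null and 15.0 and 11.7 in GIGYF1/2-null libraries. Both 4EHP-null libraries lay above all the others, while the GIGYF1/2-null libraries lay on either side of WT. CDKN1A rose in 4EHP-null cells (0.51 ± 0.13, adjusted p = 0.0231, edgeR), was not called in GIGYF1/2-null cells (0.09 ± 0.13, adjusted p = 0.729), and was lower in GIGYF1/2-null than in 4EHP-null cells (-0.42 ± 0.13, adjusted p = 0.0348). The first call ended without any 1 of its 4 libraries (adjusted p = 0.0612 to 0.148). The second ended with upper-quartile scaling (adjusted p = 0.0559), and when either 4EHP-null library was left out, or GIGYF1/2-null replicate 2 (adjusted p = 0.0694 to 0.262).

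CDKN1A footprints were at 4.34 and 2.74 CPM in WT, 7.55 and 5.85 in 4EHP-null and 3.88 and 3.36 in GIGYF1/2-null libraries, so the 4EHP-null libraries were again the highest. That difference was not called (0.96 ± 0.29, adjusted p = 0.106), but it was called with no filter on low counts (adjusted p = 0.0172), and the authors' deposited table gives 1.01 with an adjusted p of 0.0273. Between the knockouts CDKN1A footprints differed by -0.89 ± 0.28 and were not called (adjusted p = 0.066), and were called with no filter (adjusted p = 0.0131).

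PHLDA3, which competes with the kinase AKT for membrane lipids, stepped up from WT to 4EHP-null to GIGYF1/2-null cells. Its mRNA levels were 7.05 and 8.04 CPM in WT, 11.1 and 10.2 in 4EHP-null and 13.7 and 13.3 in GIGYF1/2-null libraries, with no overlap between any of the genotypes. PHLDA3 rose in both knockouts, by 0.50 ± 0.13 (adjusted p = 0.0262, edgeR) and 0.84 ± 0.13 (adjusted p = 0.00126). The step between the knockouts was not called (0.34 ± 0.13, adjusted p = 0.0694), but was with upper-quartile scaling (adjusted p = 0.0392). In 4EHP-null cells the call ended without any 1 of its 4 libraries (adjusted p = 0.057 to 0.165), and in GIGYF1/2-null cells it remained in every alternative fit. PHLDA3 footprints, at 5.06 and 4.54 CPM in WT, 4.72 and 5.04 in 4EHP-null and 6.54 and 6.54 in GIGYF1/2-null libraries, were not called in any comparison.

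PLK2, a polo-like kinase of centriole duplication and stress responses, moved in opposite directions in the knockouts. Its mRNA was at 2.85 and 2.93 CPM in WT, 2.14 and 1.29 in 4EHP-null and 5.35 and 4.21 in GIGYF1/2-null libraries. Footprints followed the same order, with 2.89 and 3.12 CPM in WT, 1.26 and 2.45 in 4EHP-null and 6.06 and 4.24 in GIGYF1/2-null. In both assays every 4EHP-null library lay below WT and every GIGYF1/2-null library above it. Neither knockout was called against WT in mRNA (-0.73 ± 0.26, adjusted p = 0.0908, and 0.72 ± 0.24, adjusted p = 0.0712). Both of these were called with no filter on low counts (adjusted p = 0.017 and 0.00892), the first also without 4EHP-null replicate 1 (-1.16, adjusted p = 0.0483) and the second also in a fit of the WT and GIGYF1/2-null libraries alone (adjusted p = 0.0427). Between the knockouts PLK2 was higher in GIGYF1/2-null cells by 1.45 ± 0.26 in mRNA (adjusted p = 0.00149, edgeR), a call that remained in every alternative fit. The footprint difference was 1.42 ± 0.35 (adjusted p = 0.0256), which was not called by DESeq2 (adjusted p = 0.0635) or without 4EHP-null replicate 1 (adjusted p = 0.195) or GIGYF1/2-null replicate 1 (adjusted p = 0.0972).

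CCNG1, which encodes cyclin G1, a partner of the phosphatase PP2A, was the member that fell in 4EHP-null mRNA. It was at 290 and 273 CPM in WT, 201 and 222 in 4EHP-null and 237 and 246 in GIGYF1/2-null libraries, and the 3 genotypes did not overlap. Between the knockouts CCNG1 was not called (0.19 ± 0.08, adjusted p = 0.112) but was with upper-quartile scaling (adjusted p = 0.044). The fall in 4EHP-null cells was -0.41 ± 0.08 (adjusted p = 0.00642, edgeR), and the call ended without WT replicate 1 (adjusted p = 0.0707) or 4EHP-null replicate 1 (adjusted p = 0.0939). Its footprints, between 86.6 and 130 CPM, overlapped in all genotypes (-0.12 ± 0.20 in 4EHP-null cells, adjusted p = 0.781).

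GADD45A, a stress sensor that acts on stress kinases and on DNA repair, was called between the knockouts alone. Its mRNA was at 22.9 and 21.0 CPM in WT, 24.6 and 21.9 in 4EHP-null and 15.6 and 18.4 in GIGYF1/2-null libraries, the last below all others. The difference of GIGYF1/2-null from 4EHP-null cells was -0.45 ± 0.12 (adjusted p = 0.0168, edgeR), and it was not called without 4EHP-null replicate 1 (adjusted p = 0.119) or GIGYF1/2-null replicate 1 (adjusted p = 0.0871). Against WT it was -0.36 ± 0.12 and not called (adjusted p = 0.0706). It was called with no filter on low counts (adjusted p = 0.028), and the authors' deposited table gives -0.35 with an adjusted p of 0.0316. GADD45A footprints were not called, at 10.1 to 14.5 CPM over all libraries. Of the 2 other tested members of this role, the RNA-binding zinc finger gene ZMAT3 (23.7 to 26.2 CPM) and the polo-like kinase PLK3 (1.53 to 1.96 CPM) had mRNA that was not called in any comparison. PLK3 footprints rested on 5 to 15 counts per library and lay above WT in every knockout library. They were not called against WT (1.08 ± 0.56, adjusted p = 0.322, and 1.07 ± 0.53, adjusted p = 0.322, edgeR).

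**Figure D2:**
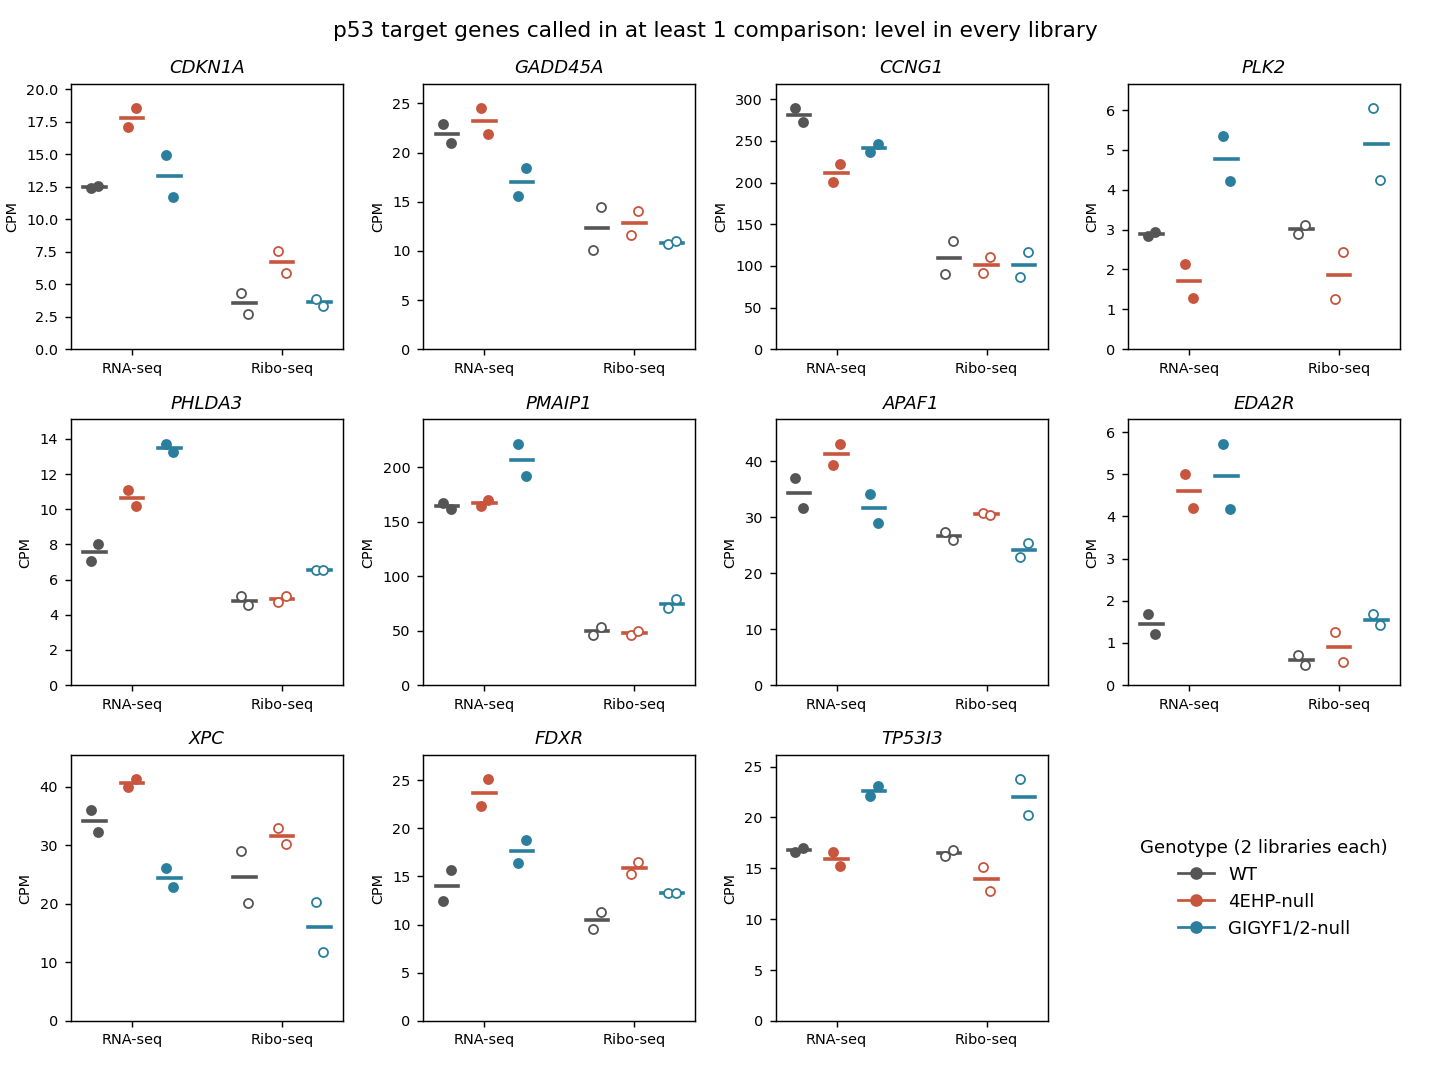
Level in CPM (vertical axis, from 0) of the 11 p53 target genes called in at least 1 comparison, in each mRNA library (filled points) and footprint library (open points), with the mean of 2 libraries as a bar, by genotype. EDA2R and PHLDA3 mRNA are above WT in both knockouts, and PLK2 is below WT in 4EHP-null and above it in GIGYF1/2-null libraries in both assays.

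Of the 2 genes that act back on p53, 0 were called in any of the 9 comparisons, where 33.3% of all genes tested in mRNA were called in at least 1. MDM2, the ubiquitin ligase that marks p53 for degradation and is itself one of its most responsive targets, had 170 and 175 CPM of mRNA in WT, 165 and 185 in 4EHP-null and 170 and 182 in GIGYF1/2-null libraries. All genotypes overlapped, with changes of 0.02 ± 0.08 (adjusted p = 0.906) and 0.03 ± 0.08 (adjusted p = 0.872) against WT. MDM2 footprints were at 58.3 and 62.6 CPM in WT, 59.1 and 58.0 in 4EHP-null and 59.6 and 66.4 in GIGYF1/2-null libraries. PPM1D, which encodes the phosphatase Wip1, had mRNA of 37.0 and 40.4 CPM in WT and 40.9 to 46.7 in the knockouts, and was not called (0.18 ± 0.10, adjusted p = 0.297, and 0.14 ± 0.10, adjusted p = 0.457).

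Of the 7 genes of mitochondrial apoptosis, 2 were called in mRNA in at least 1 comparison, as were 31.4% of all genes tested. PMAIP1 encodes NOXA, a BH3-only protein that neutralises the survival factor MCL1. Its mRNA was at 167 and 161 CPM in WT, 164 and 170 in 4EHP-null and 222 and 192 in GIGYF1/2-null libraries, so that both GIGYF1/2-null libraries lay above the rest. PMAIP1 rose in GIGYF1/2-null cells (0.34 ± 0.08, adjusted p = 0.0227, edgeR) and was higher there than in 4EHP-null cells (0.31 ± 0.09, adjusted p = 0.0198). The first call ended when either WT library was left out, or GIGYF1/2-null replicate 1 (adjusted p = 0.112 to 0.154) and the second when either 4EHP-null library was left out, or GIGYF1/2-null replicate 1 (adjusted p = 0.0934 to 0.148).

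Footprints of PMAIP1 were higher in GIGYF1/2-null cells as well, at 70.7 and 78.6 CPM against 46.2 and 53.7 in WT and 45.8 and 49.5 in 4EHP-null libraries. Between the knockouts this was called (0.65 ± 0.14, adjusted p = 0.0147, edgeR), but not when either 4EHP-null library was left out, or GIGYF1/2-null replicate 2 (adjusted p = 0.0576 to 0.13). Against WT it was 0.58 ± 0.14 and not called (adjusted p = 0.059). That PMAIP1 difference was called with upper-quartile scaling (adjusted p = 0.0437), with no filter on low counts (adjusted p = 0.012) and without GIGYF1/2-null replicate 1 (adjusted p = 0.0364). The authors' deposited table gives 0.61 for it, with an adjusted p of 0.00243.

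APAF1, the core of the apoptosome that activates caspase 9, had mRNA of 36.9 and 31.6 CPM in WT, 39.3 and 43.1 in 4EHP-null and 34.2 and 29.0 in GIGYF1/2-null libraries. Its footprints were at 27.4 and 25.9 CPM in WT, 30.7 and 30.4 in 4EHP-null and 22.9 and 25.4 in GIGYF1/2-null libraries. They were not called in any comparison (-0.34 ± 0.14 between the knockouts, adjusted p = 0.155, edgeR). The 4EHP-null libraries were the highest in both assays. Against WT, APAF1 mRNA was not called (0.27 ± 0.12, adjusted p = 0.168, and -0.12 ± 0.12, adjusted p = 0.604). APAF1 mRNA was lower in GIGYF1/2-null than in 4EHP-null cells (-0.38 ± 0.12, adjusted p = 0.0338, edgeR). That call ended with upper-quartile scaling (adjusted p = 0.0556) and without 4EHP-null replicate 2 (adjusted p = 0.157) or GIGYF1/2-null replicate 2 (adjusted p = 0.232).

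BBC3 and BAX, 2 death effectors that p53 is best known for, were not called. BBC3, or PUMA, had 6.37 and 6.45 CPM of mRNA in WT, 5.07 and 5.60 in 4EHP-null and 5.35 and 5.61 in GIGYF1/2-null libraries, all 4 knockout libraries below WT (-0.27 ± 0.16, adjusted p = 0.297, and -0.23 ± 0.15, adjusted p = 0.403). Its footprints were at 3.04 and 3.02 CPM in WT, 1.57 and 2.31 in 4EHP-null and 2.30 and 2.47 in GIGYF1/2-null libraries (-0.62 ± 0.34, adjusted p = 0.345, and -0.34 ± 0.30, adjusted p = 0.62). BAX, which forms pores in the outer mitochondrial membrane, had 69.4 and 75, 72.8 and 68.1, and 74.1 and 78.4 CPM of mRNA in the same order, with overlap between each knockout and WT (-0.04 ± 0.08, adjusted p = 0.824, and 0.08 ± 0.08, adjusted p = 0.632). BAX footprints overlapped likewise, at 49.6 and 42.5 CPM in WT, 38.7 and 44.6 in 4EHP-null and 49.3 and 48.0 in GIGYF1/2-null libraries.

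The remaining 3 genes of this role were not called: EI24, a membrane protein of the endoplasmic reticulum (400 to 499 CPM of mRNA), TRIAP1, a small mitochondrial lipid-transfer subunit that restrains apoptosis (66.8 to 79.1 CPM), and TP53INP1, a stress-induced nuclear and autophagy protein (4.83 to 6.77 CPM). EI24 and TRIAP1 mRNA lay below WT in both 4EHP-null libraries (-0.16 ± 0.09, adjusted p = 0.239, and -0.21 ± 0.08, adjusted p = 0.121). EI24 mRNA differed between the knockouts by 0.22 (adjusted p = 0.0731), which was called with upper-quartile scaling (adjusted p = 0.0328), with no filter on low counts (adjusted p = 0.0457) and without GIGYF1/2-null replicate 1 (adjusted p = 0.0143).

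Of the 3 members that are receptors of the TNF receptor family, EDA2R alone was called in at least 1 of the 9 comparisons, as were 33.3% of all genes tested in mRNA. EDA2R, also called XEDAR, binds the A2 form of ectodysplasin. Its mRNA was low, at 1.69 and 1.21 CPM in WT, 5.01 and 4.19 in 4EHP-null and 5.73 and 4.18 in GIGYF1/2-null libraries, and all 4 knockout libraries lay above both WT libraries. EDA2R rose 3.21-fold in 4EHP-null cells (1.68 ± 0.25, adjusted p = 0.00118, edgeR) and 3.44-fold in GIGYF1/2-null cells (1.78 ± 0.25, adjusted p = 0.000676), and both calls remained in every alternative fit. The knockouts did not differ beyond their spread (0.10 ± 0.22, adjusted p = 0.782). EDA2R footprints rested on 4 to 16 counts per library, at 0.724 and 0.472 CPM in WT, 1.26 and 0.544 in 4EHP-null and 1.70 and 1.41 in GIGYF1/2-null libraries, and were not called (0.60 ± 0.60, adjusted p = 0.633, and 1.40 ± 0.51, adjusted p = 0.178). The 95% interval of the footprint change in 4EHP-null cells, -0.72 to 1.92, holds both 0 and the mRNA change, so at this depth they could not be told apart.

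FAS, the receptor of Fas ligand, had 6.44 and 9.46 CPM of mRNA in WT and 7.18 to 8.74 CPM in the knockouts. TNFRSF10B, the TRAIL receptor DR5, had 74.2 and 67.5 CPM in WT and 67.2 to 71.2 CPM in the knockouts. Both overlapped WT in each knockout and neither was called in any comparison.

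XPC was the gene called in at least 1 of the 9 comparisons among the 5 of DNA repair and nucleotide supply. Of all genes tested in mRNA, 33.3% were so called. XPC recognises distorted DNA and starts global nucleotide excision repair. XPC mRNA was at 36.0 and 32.3 CPM in WT, 40.0 and 41.2 in 4EHP-null and 26.1 and 22.8 in GIGYF1/2-null libraries, so the 4EHP-null libraries lay above WT and the GIGYF1/2-null libraries below. XPC fell in GIGYF1/2-null cells (-0.48 ± 0.11, adjusted p = 0.0139, edgeR), a call that ended without WT replicate 1 (adjusted p = 0.123) or GIGYF1/2-null replicate 2 (adjusted p = 0.108). In 4EHP-null cells the difference from WT was not called (0.25 ± 0.11, adjusted p = 0.157). Between the knockouts it was -0.73 ± 0.11 (adjusted p = 0.000533), a call that remained in every alternative fit.

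XPC footprints were at 29.1 and 20.2 CPM in WT, 32.9 and 30.2 in 4EHP-null and 20.2 and 11.8 in GIGYF1/2-null libraries, with the WT libraries overlapping GIGYF1/2-null. In GIGYF1/2-null cells they were at 0.502 of the 4EHP-null level (SE 0.24 on the log2 scale, adjusted p = 0.0219, edgeR). This call ended when either 4EHP-null library was left out, or GIGYF1/2-null replicate 2 (adjusted p = 0.0796 to 0.135), and without the last the XPC difference was -0.64 on the log2 scale. Against WT the footprint difference in GIGYF1/2-null cells was -0.63 ± 0.24 and not called (adjusted p = 0.201), but was called with no filter on low counts (adjusted p = 0.0115) and, at -1.03, without GIGYF1/2-null replicate 1 (adjusted p = 0.0202).

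The other repair genes were not called. DDB2, a damage sensor that hands lesions to XPC, had 7.97 to 9.76 CPM of mRNA over all libraries. POLH, the polymerase that copies past ultraviolet lesions, had 27.8 and 28.1 CPM in WT, 28.1 and 28.0 in 4EHP-null and 25.2 and 22 in GIGYF1/2-null libraries, the last below the others (-0.24 ± 0.11 against WT, adjusted p = 0.185). RRM2B, the p53-induced subunit of ribonucleotide reductase, stood at 55.7 to 60.7 CPM, and RPS27L, a ribosomal protein paralogue placed here for its part in the damage response, at 32.3 to 40.0 CPM.

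In metabolism and redox balance, 2 of 4 genes were called in mRNA in at least 1 comparison, as were 31.4% of all genes tested. FDXR, the ferredoxin reductase of mitochondria that passes electrons to steroid and iron-sulphur cluster synthesis, had 12.5 and 15.6 CPM of mRNA in WT, 22.3 and 25.1 in 4EHP-null and 16.4 and 18.8 in GIGYF1/2-null libraries, with no overlap between genotypes. The rise of FDXR in 4EHP-null cells (0.75 ± 0.13, adjusted p = 0.00328, edgeR) remained in every alternative fit, with a range of 0.60 to 0.92. In GIGYF1/2-null cells it was 0.32 ± 0.13 and not called (adjusted p = 0.151), and below 4EHP-null cells by -0.43 ± 0.13 (adjusted p = 0.0328). The latter call ended with upper-quartile scaling (adjusted p = 0.0612) and without 4EHP-null replicate 2 (adjusted p = 0.181) or GIGYF1/2-null replicate 1 (adjusted p = 0.126). FDXR footprints showed the same order, at 9.55 and 11.3 CPM in WT, 15.3 and 16.5 in 4EHP-null and 13.3 and 13.2 in GIGYF1/2-null libraries. They were not called in 4EHP-null cells (0.59 ± 0.17, adjusted p = 0.0996), whereas the authors' deposited table gives 0.64 with an adjusted p of 0.0171.

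TP53I3, or PIG3, a quinone oxidoreductase, had mRNA of 16.6 and 17.0 CPM in WT, 16.6 and 15.3 in 4EHP-null and 22.1 and 23.1 in GIGYF1/2-null libraries, the last above all others. It rose in GIGYF1/2-null cells (0.43 ± 0.11, adjusted p = 0.0212, edgeR), a call that ended when either WT library was left out, or GIGYF1/2-null replicate 2 (adjusted p = 0.0791 to 0.11). TP53I3 was higher there than in 4EHP-null cells (0.50 ± 0.11, adjusted p = 0.00499), except without 4EHP-null replicate 2 (adjusted p = 0.0542).

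TP53I3 footprints were at 16.2 and 16.8 CPM in WT, 15.1 and 12.8 in 4EHP-null and 23.7 and 20.2 in GIGYF1/2-null libraries, with no overlap. Between the knockouts they differed by 0.66 ± 0.17 (adjusted p = 0.0285, edgeR). This footprint call of TP53I3 ended with DESeq2 (adjusted p = 0.0955), in a fit of the 2 knockouts alone (adjusted p = 0.055), and when either 4EHP-null library was left out, or GIGYF1/2-null replicate 1 (adjusted p = 0.0857 to 0.183). TIGAR, a phosphatase that lowers glycolytic flux, and SESN1, a sestrin that restrains growth signalling, were not called, with 44.2 to 54.2 and 28.5 to 34.2 CPM of mRNA. The TIGAR difference between the knockouts (0.25 ± 0.09, adjusted p = 0.0552) was called with upper-quartile scaling (adjusted p = 0.023) and with the stricter filter on low counts (adjusted p = 0.0421).

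Over the roles, 11 of the 29 members were called in at least 1 of the 9 comparisons, where 33.3% of all genes tested in mRNA were, and 17 tested members in none. In mRNA 8 were called in either knockout against WT, where 22.1% of all genes were, 2 of them (EDA2R and PHLDA3) in both, where 2.95% were, and GADD45A, PLK2 and APAF1 between the knockouts only. For the 17 uncalled members, mRNA changes ran from -0.27 (BBC3) to 0.18 (PPM1D) in 4EHP-null cells and from -0.24 (POLH) to 0.28 (PLK3) in GIGYF1/2-null cells. Their footprint changes ran from -0.62 (BBC3) to 1.08 (PLK3) and from -0.36 (SESN1) to 1.07 (PLK3) in the same order. A change of at least 1.5-fold in mRNA was seen in 3 members in each knockout, 10.7% of those tested, where 12.8% and 12.3% of all genes had one. To see whether members moved with the genes beside them, the 12 tested genes on each side were read. Over the 24 tested genes around EDA2R on chromosome X the median change was -0.12 and 0.04, and around FDXR on chromosome 17 it was 0.01 in 4EHP-null cells. Around XPC on chromosome 3 it was 0.15 in GIGYF1/2-null cells, where XPC itself fell. TP53I3, on chromosome 2, had neighbours with a median of 0.11 in GIGYF1/2-null cells and 0.23 between the knockouts, 6 of 24 called up in the latter. FAS, on chromosome 10, lay beside genes with a median of -0.25 in 4EHP-null cells, 8 of 24 called down, with FAS at -0.04.

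Footprints gave fewer calls than mRNA. In 4EHP-null against WT cells 0 of 28 members were called by edgeR, where 3.04% of all 14722 genes were called, and 2 had an unadjusted p under 0.05, as did 19.1% of all genes. In GIGYF1/2-null against WT cells the count was 0, where 2.09% of all genes were called, and 5 had an unadjusted p under 0.05, as did 17.5% of all genes. DESeq2 and limma-voom also called 0 in both. Between the knockouts 3 members were higher in GIGYF1/2-null cells (PLK2, PMAIP1 and TP53I3) and 1 lower (XPC), where 10.8% of all genes were called (3.98% up and 6.8% down), and all 4 were also called in mRNA in the same direction.

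The footprint and mRNA changes of the members mostly had the same sign. This held for 24 of 28 members in 4EHP-null cells, 24 of 28 in GIGYF1/2-null cells and 22 of 28 between the knockouts, against 69.7%, 72.2% and 76.3% of all genes. It held for all members called in mRNA, 5 of 5, 5 of 5 and 8 of 8. Of all genes called in mRNA, 92.9%, 95.3% and 95.2% had the same sign in both assays. Across the members Pearson's r between the changes was 0.67, 0.85 and 0.88, and across all genes 0.54, 0.61 and 0.70. Members of 1 fit share the libraries, so these are descriptions.

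**Figure D3:**
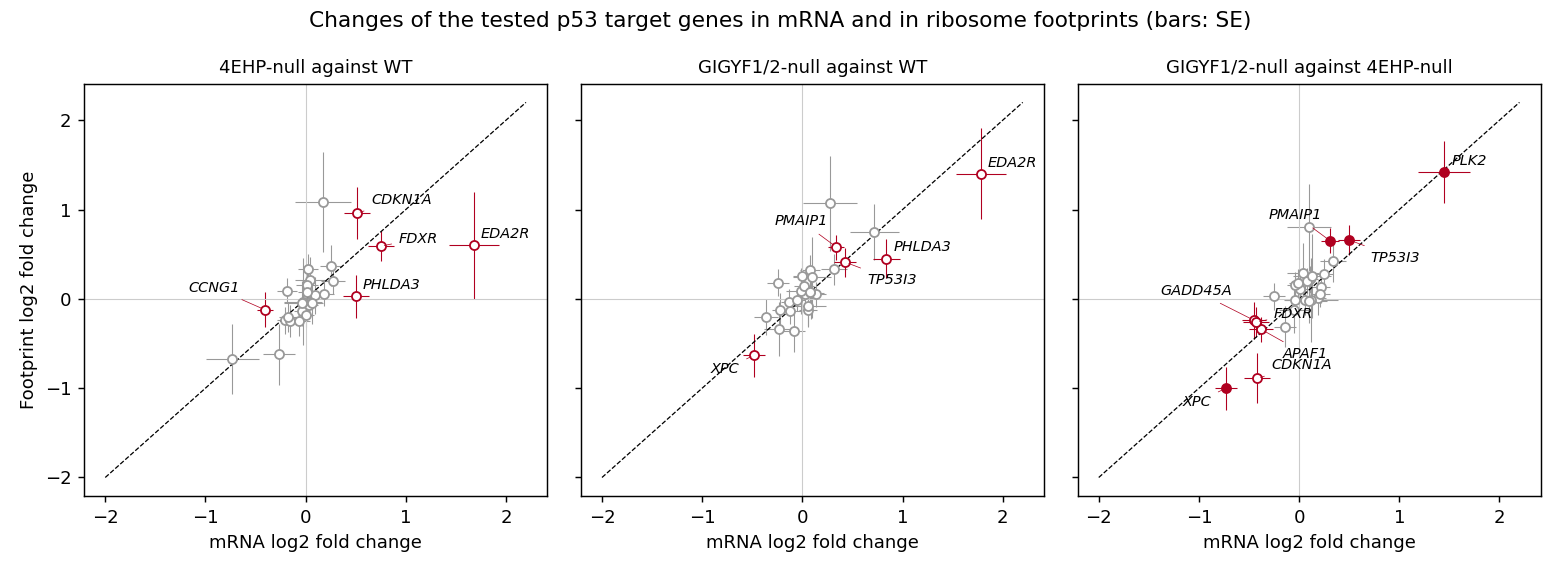
Footprint log2 fold change (vertical axis) against mRNA log2 fold change (horizontal axis) of the 28 tested p53 target genes in the 3 comparisons, with SE bars and a dashed line of equal change. Red outlines are members called in mRNA and red fills those called in footprints, which are PLK2, PMAIP1, TP53I3 and XPC between the knockouts.

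Translation efficiency (TE), the footprint change minus the mRNA change in 1 model over 12 libraries, was called for 0 of 28 members in each of the 3 comparisons by edgeR, DESeq2 and limma-voom. Of all 13257 genes tested, 0.0981%, 0.0453% and 0.181% were called. At an unadjusted p under 0.05 there were 0, 1 and 0 members, the 1 being POLH in GIGYF1/2-null against WT cells. POLH gained footprints relative to mRNA by 0.44 ± 0.17 there, with a 95% interval of 0.08 to 0.80 and an adjusted p of 1 (edgeR). The intervals were wide for the low genes: CDKN1A had a TE difference of 0.48 ± 0.31 (-0.18 to 1.14) in 4EHP-null cells and EDA2R of -1.05 ± 0.71 (-2.56 to 0.47).

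Per kilobase of gene width in the deposited tables, WT mRNA was highest for EI24 (183 CPM per kb), followed by CCNG1 (114), PMAIP1 (84.7), TRIAP1 (65.8) and BAX (55.4). MDM2 stood at 22.8 CPM per kb and CDKN1A at 4.74. The lowest were PLK3 (0.619), EDA2R (0.405) and GDF15 (0.130). Footprints per mRNA, as the ratio of CPM in WT, ran from 0.0962 for EI24 to 1.46 for POLH. The member median was 0.54 against 0.718 over all 13257 genes, with 20 of 28 members below that value. mRNA reads cover whole transcripts and footprints mainly the coding part, so genes with long untranslated regions have a lower ratio at the same translation. The part of this in the member ratios was not tested.

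**Figure D4:**
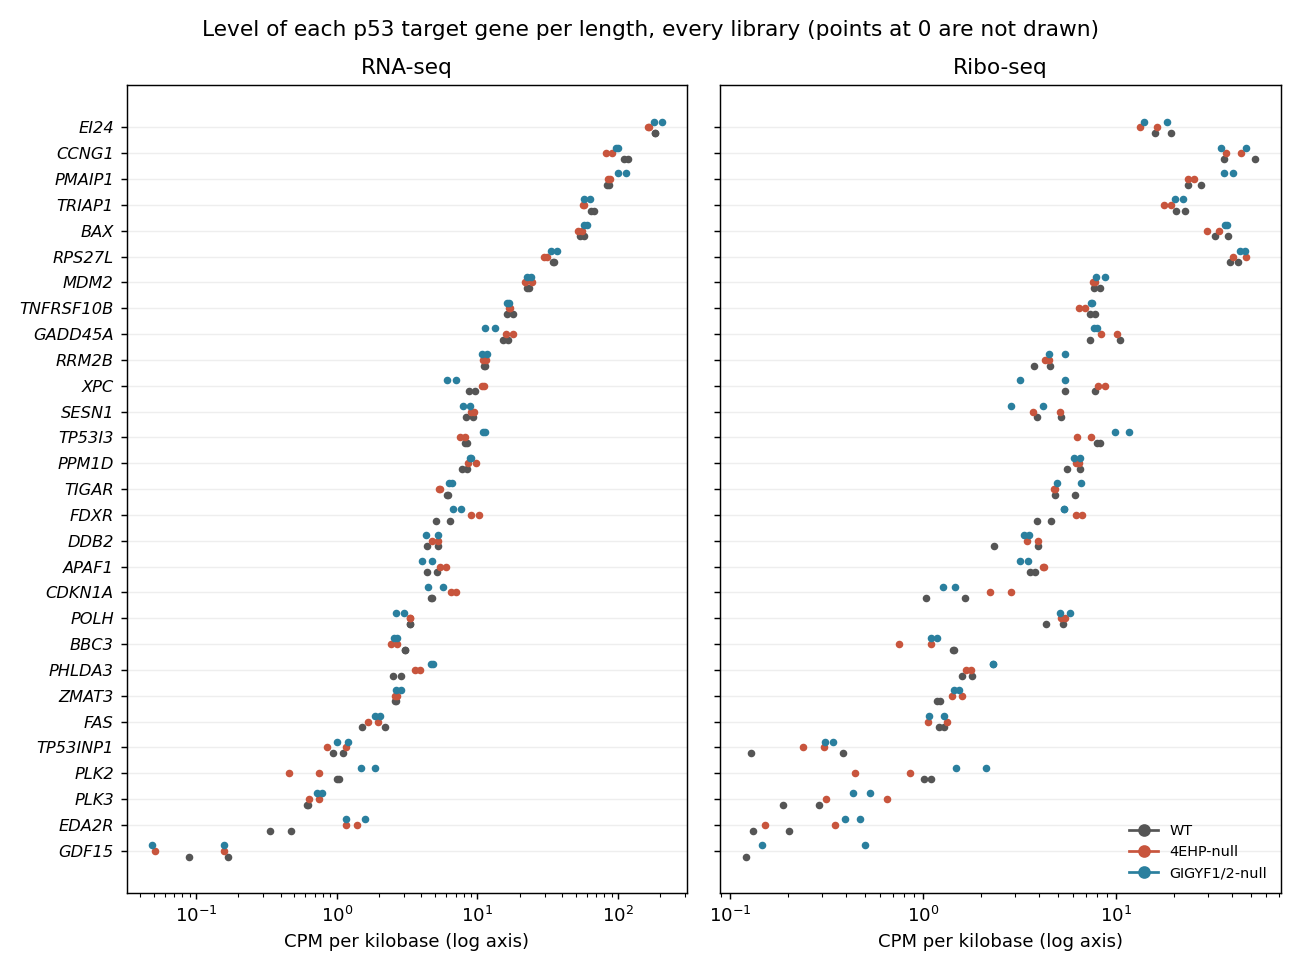
Level of each of the 29 p53 target genes in CPM per kilobase of gene width (horizontal log axis) in every mRNA and footprint library, ordered by the WT mRNA mean and coloured by genotype. EI24 and CCNG1 lead in mRNA and EDA2R and GDF15 are at the bottom, where the points of the libraries spread most.

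The genes that control p53 were read from a list of 30, of which 29 were tested. TP73, a transcription factor of the p53 family, was not called (-0.06 ± 0.11 and -0.10 ± 0.11), and TP63 had at most 2 counts in any library and was not tested. MDM4, the partner of MDM2 that masks the activation domain of p53, had 35.3 and 34.4 CPM in WT, 43.7 and 42.7 in 4EHP-null and 44.3 and 44.4 in GIGYF1/2-null libraries. All 4 knockout libraries lay above WT, and MDM4 rose in both (0.31 ± 0.09, adjusted p = 0.0469, and 0.35 ± 0.09, adjusted p = 0.0293, edgeR). Each MDM4 call ended without any 1 of its 4 libraries (adjusted p = 0.135 to 0.234 and 0.0946 to 0.173), and the first also with upper-quartile scaling (adjusted p = 0.0567) and with no filter on low counts (adjusted p = 0.0581).

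Of these 29 regulators, 2 rose and 2 fell in 4EHP-null mRNA, 1 rose and 1 fell in GIGYF1/2-null mRNA, and 2 were higher and 7 lower in GIGYF1/2-null than in 4EHP-null cells, which is 13.8%, 6.9% and 31% of those tested, beside 13.1%, 11.9% and 24.4% of all genes. In 4EHP-null cells the histone chaperone DAXX rose (0.29 ± 0.08), and RPL5 (-0.31 ± 0.09) and RPL11 (-0.41 ± 0.09), ribosomal proteins that can hold MDM2 inactive, fell. The calls of DAXX and RPL5 ended without any 1 of their 4 libraries (adjusted p up to 0.188 and 0.185), and that of RPL11 when either WT library or 4EHP-null replicate 1 was left out (adjusted p up to 0.102). In GIGYF1/2-null cells HIPK2, a kinase that activates p53, fell (-0.60 ± 0.08, adjusted p = 0.000533, edgeR). HIPK2 lies on chromosome 7 in a run of neighbours with a median of -0.48, 16 of 24 called down. CDKN2A, whose ARF product binds MDM2, was lower in GIGYF1/2-null than in 4EHP-null cells (-0.43 ± 0.09), beside neighbours on chromosome 9 with a median of -0.46, 17 of 24 called down. The deacetylase SIRT1 (0.31 ± 0.09, adjusted p = 0.0265) and the damage kinase ATR (0.32 ± 0.11, adjusted p = 0.0458, and 0.58 ± 0.14 in footprints, adjusted p = 0.0199) were higher in that comparison, and DAXX was lower (-0.31 ± 0.08, adjusted p = 0.0122). The SIRT1, ATR and DAXX calls all ended when either 4EHP-null library was left out, with adjusted p up to 0.197, 0.283 and 0.0847. HIPK2 footprints also fell in GIGYF1/2-null cells (-0.88 ± 0.19, adjusted p = 0.0366), a call that ended with DESeq2, with upper-quartile scaling and without any 1 of its 4 libraries (adjusted p up to 0.183).

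A second list held 67 other p53 targets, of which 62 were tested in mRNA. It had 7 up and 4 down in 4EHP-null cells, 3 up and 2 down in GIGYF1/2-null cells and 7 up and 3 down between the knockouts. These were 17.7%, 8.06% and 16.1% of those tested, beside 13.1%, 11.9% and 24.4% of all genes. In footprints 1.79%, 3.57% and 5.36% of the 56 tested were called, beside 3.04%, 2.09% and 10.8% of all genes. RPRM, which encodes the cell-cycle arrest protein Reprimo, was at 1.90 and 1.72 CPM of mRNA in WT, 3.76 and 4.99 in 4EHP-null and 11 and 14.3 in GIGYF1/2-null libraries, with no overlap. RPRM mRNA rose in 4EHP-null cells by 1.27 ± 0.22 (adjusted p = 0.00277, edgeR) and in GIGYF1/2-null cells by 2.81. Between the knockouts its mRNA was higher in GIGYF1/2-null cells by 1.54. These mRNA calls remained in every alternative fit. RPRM footprints rose in GIGYF1/2-null cells by 2.82 ± 0.39 (adjusted p = 0.00449, edgeR), a call that ended without WT replicate 2.

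SESN2, the stress-induced relative of SESN1, moved in opposite directions, with 65.6 and 71.4 CPM of mRNA in WT, 80.6 and 101 in 4EHP-null and 47.2 and 55.2 in GIGYF1/2-null libraries. It rose by 0.41 ± 0.11 (adjusted p = 0.0332, edgeR) and fell by 0.42 on the log2 scale (SE 0.11, adjusted p = 0.0322), and the knockouts differed by -0.82 ± 0.11 (adjusted p = 0.000301), the last in every alternative fit. The SESN2 calls against WT ended without WT replicate 1 or 2, 4EHP-null replicate 2 or GIGYF1/2-null replicate 1 (adjusted p up to 0.332 and 0.203), and in GIGYF1/2-null cells with upper-quartile scaling (adjusted p = 0.0523). PERP, a desmosome protein of the apoptotic response, fell in GIGYF1/2-null mRNA (-0.64 ± 0.08, adjusted p = 0.000423), beside neighbours with a median of -0.30. FBXO22, a ubiquitin ligase subunit, fell in 4EHP-null mRNA (-0.57 ± 0.09, adjusted p = 0.00161), beside neighbours with a median of -0.33, 9 of 24 called down.

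AEN, an exonuclease of apoptotic cells, lay on chromosome 15 in the same way, with neighbours at a median of -0.40 in 4EHP-null cells, 11 of 24 called down, and 0.54 between the knockouts, 13 of 24 called up. SLC12A4, a potassium and chloride cotransporter, rose in 4EHP-null mRNA by 0.74 ± 0.16 (adjusted p = 0.00979, edgeR) among neighbours with a median of -0.01. ARHGEF3, a guanine nucleotide exchange factor, rose in both knockouts (0.48 ± 0.11, adjusted p = 0.0148, and 0.43 ± 0.11, adjusted p = 0.0258), and HSPA4L, a chaperone, in 4EHP-null cells (0.55 ± 0.14, adjusted p = 0.0207). These 3 genes were not called in 4EHP-null cells without WT replicate 2. SLC12A4 and ARHGEF3 were not called without 4EHP-null replicate 1 either (adjusted p up to 0.0875 and 0.119), nor HSPA4L without WT replicate 1 or 4EHP-null replicate 2 (adjusted p up to 0.182). ARHGEF3 in GIGYF1/2-null cells was not called without any 1 of its 4 libraries (adjusted p up to 0.154).

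Of the 56 other targets tested in footprints, TRAF4, a signalling adaptor, fell in 4EHP-null cells (-1.03 ± 0.23, adjusted p = 0.0312, edgeR), which DESeq2 did not call and which ended without any 1 of its 4 libraries (adjusted p up to 0.231). PERP fell in GIGYF1/2-null cells (-0.67 ± 0.15, adjusted p = 0.0413), except with upper-quartile scaling, in a fit of the 2 genotypes alone, or without WT replicate 1, WT replicate 2 or GIGYF1/2-null replicate 1 (adjusted p up to 0.21). Between the knockouts RPRM was higher in the GIGYF1/2-null libraries (1.19 ± 0.33, adjusted p = 0.0387), and ASCC3, a helicase (-0.62 ± 0.14, adjusted p = 0.0163), and HSPA4L (-0.55 ± 0.16, adjusted p = 0.0419) were lower. These calls of RPRM, ASCC3 and HSPA4L ended without 4EHP-null replicate 1, among others (adjusted p up to 0.25, 0.13 and 0.294).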

How the data were processed

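RNA-seq and Ribo-seq counts of 6 libraries each were analysed. Per the file headers, the deposited tables hold read counts per gene, with a gene width, over 27011 genes. Bowtie2, TopHat2, edgeR and the build hg19 are named in the submitters' processing notes, and the sources used here do not give the counting tool, the annotation or whether strand was used, so reads of overlapping or antisense genes cannot be told apart. Per the file headers, the authors' comparison tables hold log2 fold changes and p-values, unadjusted and adjusted.

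Counts were tested with R 4.3.3 and edgeR 4.0.16 (filterByExpr, TMM within an assay, quasi-likelihood F-test, two-sided, 6 libraries in 1 fit). TE was the interaction over 12 libraries. Genes tested were 15637 in RNA-seq, 14722 in Ribo-seq and 13257 in TE, and p-values were adjusted over them (Benjamini-Hochberg). The spread between libraries, as edgeR's common coefficient of variation, was 0.0862 for mRNA and 0.119 for footprints. The fits were tested on simulated data. As alternatives, scaling was by RLE or upper quartile, the filter was dropped or set at 1 CPM, DESeq2 1.42.0 or limma-voom (limma 3.58.1) replaced edgeR, the fit was limited to the 2 genotypes or took the replicate number as a block, or 1 library was left out. Where 1 library was left out, the lone library was assumed to vary like the others.

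The members and lists were chosen with earlier results of these data known. Values of each mRNA library go to members called in at least 1 of 9 comparisons and to CDKN1A, MDM2, BBC3 and BAX, with their main changes. Of the regulators and the other targets, the text names up to 2 per direction and comparison, those called with the smallest adjusted p, and MDM4, TP63 and TP73; 1 further gene is not reported here. The 12 tested genes on each side in RefSeq order (GRCh38.p14, order only, 25573 genes matched, 94.7%) served as neighbours, as a description. Endothelial and hepatocyte markers summed to at most 0.468 and 0.475 CPM in mRNA.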

Additional observations from a re-analysis of the deposited data

Results flagged for a closer look

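The knockouts stood on opposite sides of WT, and their difference was called by edgeR, for PLK2, XPC and TP53I3. The share of all genes that did so was not computed, so whether members did so more often than other genes cannot be told. Between the knockouts 24.4% of all genes were called in mRNA and 10.8% in footprints, on whichever side of WT they lay. PLK2 differed between GIGYF1/2-null and 4EHP-null cells by 1.45 in mRNA and by 1.42 in footprints, with each 4EHP-null library below both WT libraries and each GIGYF1/2-null library above them. XPC differed by -0.73 in mRNA, with the 4EHP-null libraries above WT and the GIGYF1/2-null libraries below. TP53I3 differed by 0.66 in footprints, with the 4EHP-null libraries below WT and the GIGYF1/2-null libraries above, while in mRNA the 4EHP-null libraries overlapped WT.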

How the results depend on the processing

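Of 22 calls among the 14 members described in full, 17 were kept in each alternative that used all libraries of the comparison, 6 in each fit that left out a library and 6 in all alternatives, and none changed direction. In mRNA, the count of called members ran from 2 to 3 in 4EHP-null against WT cells when 1 library was left out, from 2 to 4 in GIGYF1/2-null against WT cells and from 3 to 6 between the knockouts. In footprints it ran from 0 to 2 in GIGYF1/2-null against WT cells and from 0 to 2 between the knockouts. With upper-quartile scaling 1 member was called in GIGYF1/2-null against WT footprints, where 1.84% of all genes were, beside 2.09% with TMM scaling. With no filter on low counts 2 were called there, and 1 in 4EHP-null against WT footprints. Without the filter 5.64% and 5.79% of all genes were called in these comparisons, beside 2.09% and 3.04% with it. DESeq2 called 2 between the knockouts in footprints, and 7.55% of all genes, beside 10.8% by edgeR. Leaving out 1 library also lowered the share of all genes called in mRNA, in every such fit. In footprints that share fell too, except without GIGYF1/2-null replicate 1, where it rose. The cause of these moves in the member counts was not tested. The labels pair no libraries, and same-numbered libraries deviated together with r of 0.07 to 0.18 in RNA-seq and 0.15 to 0.32 in Ribo-seq. With the replicate number as a block, 9 members were called in GIGYF1/2-null against WT mRNA, 2 in 4EHP-null against WT footprints (CDKN1A, adjusted p = 0.0137, and FDXR, 0.0202) and 2 in GIGYF1/2-null against WT footprints (PMAIP1, 0.000734, and XPC, 0.00294), and CDKN1A was added between the knockouts in footprints (0.0106). In mRNA the block added PLK2, GADD45A, CCNG1 and FDXR in GIGYF1/2-null cells, PLK2 in 4EHP-null cells, and CCNG1, EI24, PHLDA3 and TIGAR between the knockouts. The block also raised the share of all genes called. For 4EHP-null against WT, GIGYF1/2-null against WT and the knockouts it was 22.8%, 20.6% and 34.3% in mRNA, beside 13.1%, 11.9% and 24.4% without the block. In footprints it was 12.4%, 11.9% and 22.4%, beside 3.04%, 2.09% and 10.8%. Depth limits low genes such as EDA2R and PLK3, above all in footprints.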
